A study of Homo sapiens with 12 samples.

Results

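The 31 genes described here encode enzymes of cholesterol and fatty acid synthesis and the proteins that regulate them. They were chosen by gene symbol from the 60624 gene rows of each count table, with no measured value in the rule but with earlier results of these data known. All 31 were found and passed the filter on low counts in both experiments. They comprise 18 enzymes of the sterol branch, 7 regulators and proteins of sterol traffic, and 6 enzymes of the fatty acid branch. Bulk RNA-seq had been run on 12 libraries of islet-like cells, labelled as islets made from expandable pancreatic progenitors (ePP) of MEL1, a human embryonic stem cell line. Progenitors had been grown on feeder cells, and the islet-like cells of every group were collected on day 8 in a medium called R6, which held B27, BSA, zinc sulfate, heparin, 616452, T3, LDN-193189, Compound E, vitamin C and forskolin. Libraries came in 4 groups of 3: NKX2-2 knockout with its own wild type, and CLEC16A knockout with its own wild type. NKX2-2 is a transcription factor of islet cell development, and CLEC16A is a protein of endosomal traffic and mitophagy. No clone is named in the labels, so differences between cell lines and effects of a knockout cannot be told apart. The labels do not say that replicates were separate cultures, so the p-values refer only to spread among the libraries, and that spread could be technical.

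Cells build cholesterol from acetyl-CoA through mevalonate, farnesyl diphosphate, squalene and lanosterol, and they build fatty acids from the same acetyl-CoA. The transcription factors SREBP-1 and SREBP-2, encoded by SREBF1 and SREBF2, switch on most genes of both branches. They are made as precursors in the endoplasmic reticulum, where SCAP carries them to the Golgi for cleavage when sterols are low and where INSIG1 and INSIG2 retain SCAP when sterols are plentiful. SREBP-2 acts mainly on the sterol branch and SREBP-1c mainly on the fatty acid branch, which in endocrine cells supplies membranes and the acyl chains of secretory granules.

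Promoter sequences are shown for genes that carry the results below, because SREBPs act through short sites close to the start of transcription and usually together with the factor NF-Y. RefSeq windows of 250 bases before the start (GRCh38.p14) matched 27 of the 31 genes by symbol, with ACAT2, SQLE, FASN and FDFT1 unmatched, and some genes had several starts, giving 36 windows. Both strands were searched for TCACNCCAC, a form of the sterol regulatory element, for CCAAT, the NF-Y box, and for CACGTG, an E-box that reads the same on both strands. In the lines that follow each stretch reads 5′ to 3′ on the strand of its gene and stops at the first base that GENCODE v29 (GRCh38) places in an exon of a protein-coding gene. Capitals mark matches of the motifs, with ATTGG for CCAAT on the other strand, and the matches shown do not overlap. SREBF2 was the single gene of the 27 with a match of TCACNCCAC, DHCR7 had the smallest p of the sterol enzymes, and SCD had the smallest p of the fatty acid enzymes. The window of SCAP, with the smallest p of the regulators, is not shown because 172 of its 250 bases lie at or beyond such an exon, and a second DHCR7 window held no match.
SREBF2 (chr22:41832855-41833078, plus strand): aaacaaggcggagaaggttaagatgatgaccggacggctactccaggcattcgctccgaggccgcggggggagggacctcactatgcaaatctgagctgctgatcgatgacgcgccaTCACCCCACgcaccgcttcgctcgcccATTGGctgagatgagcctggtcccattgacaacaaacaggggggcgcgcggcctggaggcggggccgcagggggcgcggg
DHCR7 (chr11:71448436-71448643, minus strand): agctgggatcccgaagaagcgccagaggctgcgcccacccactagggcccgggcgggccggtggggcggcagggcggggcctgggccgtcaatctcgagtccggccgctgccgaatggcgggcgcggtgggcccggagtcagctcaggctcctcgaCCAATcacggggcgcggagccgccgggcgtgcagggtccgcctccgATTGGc
SCD (chr10:100346983-100347123, plus strand): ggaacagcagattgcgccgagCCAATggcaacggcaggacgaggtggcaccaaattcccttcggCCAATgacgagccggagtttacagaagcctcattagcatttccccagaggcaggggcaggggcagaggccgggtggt
CCAAT was present in 22 of the 36 windows of these genes, or 61.1%, and in 32% of all 35116 RefSeq windows. By branch it was found for 13 of 15 sterol enzymes, 4 of 7 regulators and 2 of 5 fatty acid enzymes that had a window. Of all 27305 genes with a window, 37% had it. TCACNCCAC was present in 1 of the 36 windows and in 0.883% of all windows. CACGTG was present for 3 genes, SCAP, INSIG1 and SC5D. It was found in 4 of the 36 windows, or 11.1%, and in 6.34% of all windows. These matches describe letters in a window, not binding.

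Library totals ran from 16157481 to 20649976 counts for NKX2-2 and its wild type, and for CLEC16A and its wild type from 31364272 to 33763795. Neither targeted transcript was called in its own experiment by edgeR without the replicate block: NKX2-2 stood at 95.4, 96.6 and 93.4 CPM (reads of a gene relative to its library's total, TMM-scaled) in its wild type and at 91.9, 68.0 and 68.3 in its knockout, and CLEC16A stood at 36.2, 30.1 and 30.8 against 35.4, 38.0 and 36.8. With the number of the replicate as a block, the NKX2-2 transcript was called lower in its own knockout (log2 fold change -0.34, adjusted p 0.00192) and CLEC16A was not called (adjusted p 0.105 in its experiment). In the CLEC16A experiment NKX2-2 fell from 113.5, 131.0 and 118.9 CPM to 65.7, 65.8 and 58.9 (log2 fold change -0.93, adjusted p 3.53e-10). The labels do not give the deleted part of either gene, so these counts check the labels only in part. Insulin and glucagon transcripts were present in every library, while IAPP, another islet hormone gene, was below 1 CPM throughout. Cell type markers were called in both knockouts. Over all genes tested, 33.4% were called in the NKX2-2 knockout and 45% in the CLEC16A knockout, and the counts that follow are to be read beside these shares. Of the islet endocrine markers, 11 of 15 tested fell and 2 rose in the NKX2-2 knockout (summed level 6330.9 to 6729.2 CPM in wild type, 2123.6 to 2301.1 in knockout), and 14 of 16 fell and 1 rose in the CLEC16A knockout (30229.4 to 33139.3 against 16519.5 to 18722.6). Most of the CLEC16A sum is the gene CHGA, at 23858.3 to 26668.4 CPM in wild type and 13161.8 to 15422.1 in knockout. In the NKX2-2 wild type CHGA stood at 435.3 to 556.9 CPM, so the sums are not comparable between experiments. All 10 mesenchyme markers rose in the NKX2-2 knockout (2715.6 to 3023.3 against 7027.5 to 8042.8 CPM), and 8 of 10 fell in the CLEC16A knockout (200.1 to 213 against 68.33 to 73.41). Liver markers rose for 4 and fell for 2 of 12 in the NKX2-2 knockout (12184.6 to 14625.5 against 12529.1 to 15681.4 CPM) and rose for 9 of 12 in the CLEC16A knockout (6947.2 to 7187.1 against 15022.6 to 15960.3). Enterocyte markers rose for 1 and fell for 5 of 8 in the NKX2-2 knockout (2345.9 to 2497.6 against 1615.2 to 1637.6 CPM) and rose for all 8 in the CLEC16A knockout (956.3 to 1003.9 against 5048.4 to 6098.9). Proliferation markers rose for 1 and fell for 1 of 8 in the NKX2-2 knockout, a smaller share of calls than over all genes, and rose for 5 of 8 in the CLEC16A knockout. Neuron markers rose for 1 and fell for 2 of 6 in the NKX2-2 knockout (671 to 781.9 against 664.1 to 801.8 CPM) and fell for 5 of 6 in the CLEC16A knockout (684.3 to 750 against 343.8 to 371.1). The part of these shifts in the results below was not tested, and in bulk RNA fewer cells of a type and less RNA per cell cannot be told apart.

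In the NKX2-2 knockout, lipid synthesis genes fell in both branches. Of the 31 genes, 19 were lower and 1 was higher at an adjusted p under 0.05 (edgeR quasi-likelihood test), and 11 were not called. Over all 17436 genes tested, 33.4% were called, 16.8% lower and 16.6% higher, while the members that fell were 61.3% of the 31. The log2 fold change was negative for 28 of the 31 genes with a median of -0.38, against a median of 0.03 over all genes tested. The CPM of knockout and wild type did not overlap for 23 of the 31, where 45.5% of all genes tested did not overlap. With the replicate number as a block 22 genes were lower and 1 higher, the added calls being FDPS, FDFT1 and ELOVL6. The numbers were taken as pairs from the data. The 33.4% of all genes called belongs to the fit without the block, so the added calls are not set against a share of all genes. Knockout was below wild type in all 3 same-numbered pairs for 24 genes and above it in all 3 for 1 gene. The same count was not made over all genes, so these numbers have no share to be read against. Together the 31 genes took 0.397% to 0.431% of counts in wild type and 0.257% to 0.306% in knockout. These totals include counts of mitochondrial DNA genes. Without them the shares were 0.431% to 0.466% in wild type and 0.286% to 0.336% in knockout.

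**Figure D1:**
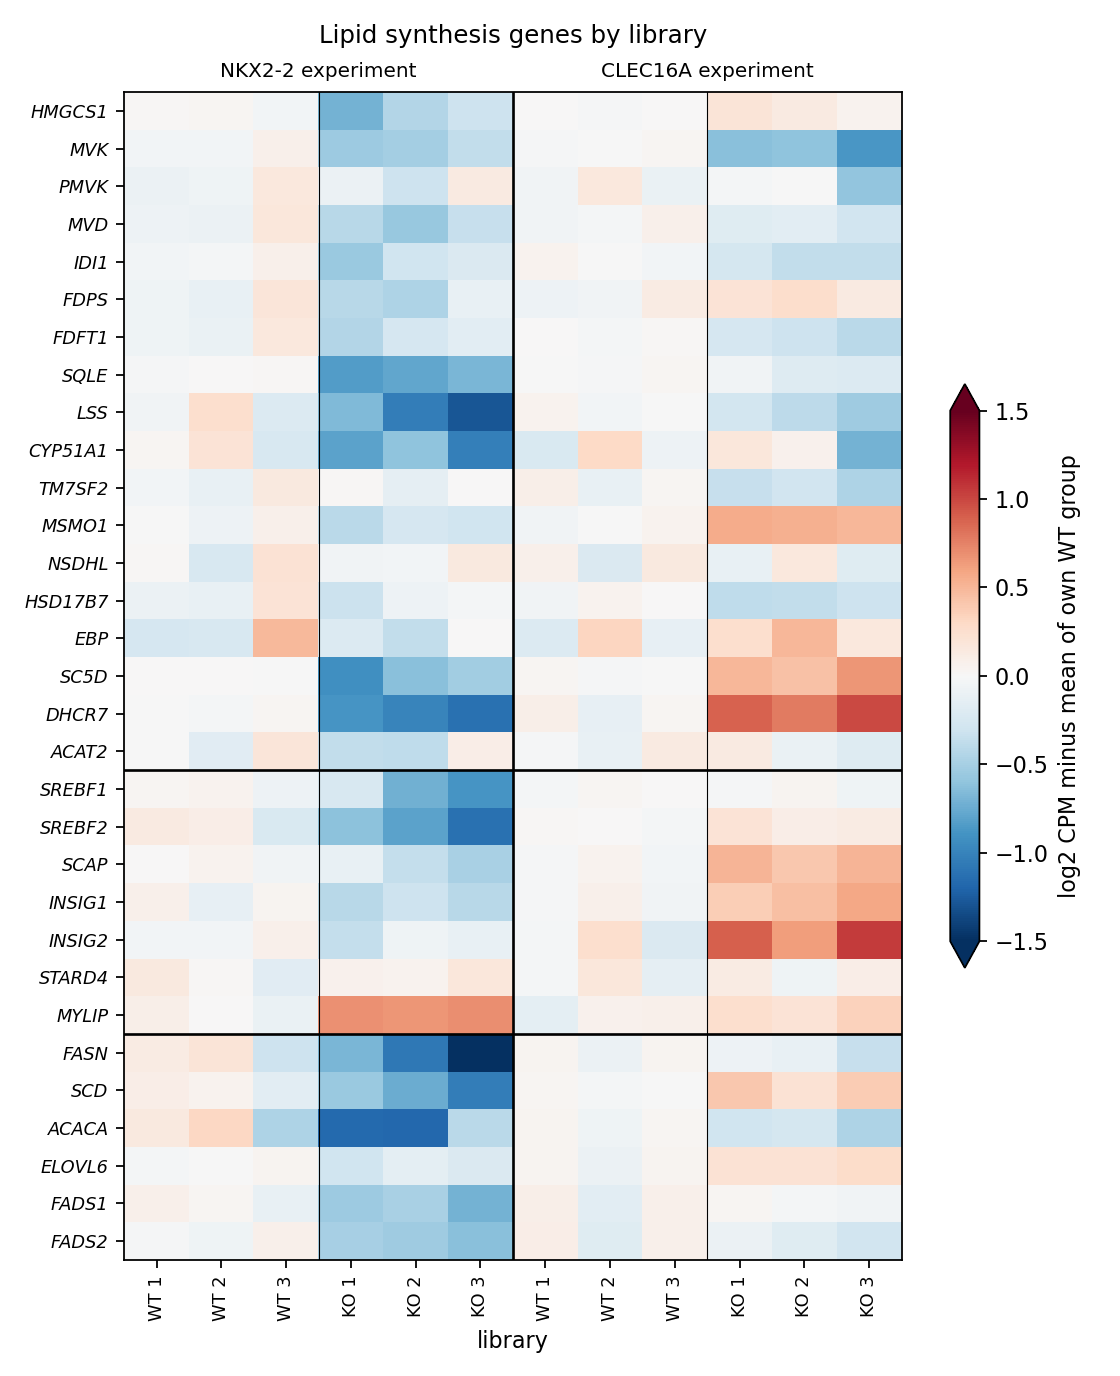
Heat map of 31 genes (rows, in the order sterol enzymes, regulators and fatty acid enzymes, set apart by black lines) in 12 libraries (columns). Colour gives log2 CPM minus the mean of the wild-type group of the same experiment, blue below and red above. Most rows are blue in the 3 NKX2-2 knockout columns and MYLIP is red, while in the CLEC16A knockout columns DHCR7, INSIG2, SC5D, MSMO1, SCAP and INSIG1 are red and MVK is the deepest blue.

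Of the 18 sterol enzymes, 10 fell in the NKX2-2 knockout, none rose, and the median log2 fold change was -0.34. DHCR7 (GENCODE v29, GRCh38 chr11:71428193-71452868, minus strand), which makes cholesterol from 7-dehydrocholesterol in the last step of the pathway, stood at 180.9, 177.9 and 184.1 CPM in wild type and at 98.1, 90.7 and 83.2 in knockout. The fall was -0.997 on the log2 scale (SE 0.099, adjusted p 5.9e-06). LSS, which closes squalene epoxide into lanosterol, stood at 30.6, 37.8 and 27.6 CPM in wild type and at 19.99, 15.4 and 13.0 in knockout (log2 fold change -0.99, SE 0.166, adjusted p 0.000477). SQLE, the oxygenase that commits squalene to sterols, stood at 115.2, 117.5 and 118.1 CPM against 65.6, 68.2 and 72.5 (log2 fold change -0.77, SE 0.096, adjusted p 4.19e-05). For these 3 enzymes every knockout library was below every wild-type library. Counts of LSS are uncertain in this experiment, as given below with ACACA. SC5D, the desaturase one step before DHCR7, stood at 145.6, 145.6 and 144.0 CPM against 76.9, 93.9 and 100.9 (log2 fold change -0.68, SE 0.112, adjusted p 0.000405). MVK, which phosphorylates mevalonate, stood at 53.5, 53.5 and 58.3 CPM against 37.6, 38.6 and 42.8 (log2 fold change -0.47, SE 0.108, adjusted p 0.00423). Neither gene had overlapping groups.

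Falls of IDI1 and MSMO1 were smaller and less firm. IDI1, which isomerizes isopentenyl diphosphate, stood at 103.6, 104.1 and 112.3 CPM in wild type and at 72.2, 86.7 and 92.1 in the NKX2-2 knockout (log2 fold change -0.35, SE 0.111, adjusted p 0.0274). Its call ended without knockout library 2 or without wild-type library 1, 2 or 3, with values of -0.38, -0.39, -0.39 and -0.31 and adjusted p of 0.0683, 0.0547, 0.0531 and 0.0668. MSMO1, which starts removal of the C4 methyl groups of lanosterol, stood at 99.4, 94.5 and 104.6 CPM against 75.3, 83.2 and 81.1 (log2 fold change -0.32, SE 0.098, adjusted p 0.025). Its call ended without knockout library 2 or wild-type library 1 or 3, with values of -0.35, -0.34 and -0.28. With upper-quartile scaling the calls of IDI1 and MSMO1 also ended (-0.29 and -0.26, edgeR adjusted p 0.0676 and 0.0671). TM7SF2, a sterol reductase that acts after lanosterol, did not differ detectably (102.6, 97.6 and 116.9 CPM against 106.8, 96.0 and 106.1, log2 fold change -0.04, SE 0.105).

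Among the other sterol enzymes, CYP51A1, the lanosterol demethylase, fell by 0.81 on the log2 scale, HMGCS1, the synthase of the pathway's entry, by 0.48, and MVD, which decarboxylates mevalonate diphosphate, by 0.45. The call of MVD ended without knockout library 2 (-0.39, adjusted p 0.0581). FDPS and FDFT1, which make farnesyl diphosphate and squalene, had log2 fold changes of -0.33 and -0.28 and were called with the replicate block (adjusted p 0.00178 and 0.00347) but not without it (0.0615 and 0.0664). PMVK, NSDHL, HSD17B7, EBP and ACAT2 were not called, with log2 fold changes from -0.22 to 0.01. CYP51A1 is uncertain because 83.2% of its exonic bases in GENCODE v29 also belong to another gene, and ACAT2 because 52.3% do, SOD2 and TCP1 among the partners.

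Of the 7 regulators, 4 fell and 1 rose in the NKX2-2 knockout. SREBF2 (chr22:41833079-41907308, plus strand) stood at 328.0, 319.8 and 253.9 CPM in wild type and at 194.4, 171.0 and 137.4 in knockout (log2 fold change -0.84, SE 0.139, adjusted p 0.000421). SREBF1 stood at 190.8, 193.3 and 176.6 CPM against 158.3, 113.5 and 101.3 (log2 fold change -0.59, SE 0.144, adjusted p 0.00673). For both transcription factor genes the highest knockout library lay below the lowest wild-type library. INSIG1, which holds SCAP in the endoplasmic reticulum and is itself an SREBP target, stood at 58.6, 51.2 and 57.5 CPM against 41.7, 45.0 and 41.8 (log2 fold change -0.38, SE 0.107, adjusted p 0.0155). Without wild-type library 1 its value was -0.36 and the adjusted p 0.0659. INSIG2, the second retention protein, stood at 30.4, 30.5 and 33.0 CPM against 24.3, 29.9 and 29.02 and was not called (log2 fold change -0.17, SE 0.118, adjusted p 0.29).

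SCAP, the sterol sensor that escorts SREBPs, stood at 211.5, 219.0 and 202.5 CPM in wild type and at 195.0, 164.4 and 150.0 in the NKX2-2 knockout (log2 fold change -0.31, SE 0.111, adjusted p 0.0455). This call was the least firm of the regulators: it ended without knockout library 2 or 3 or wild-type library 1 or 2, with values of -0.29, -0.23, -0.33 and -0.30. With upper-quartile scaling it also ended (-0.25, edgeR adjusted p 0.0989). MYLIP, a ubiquitin ligase that degrades lipoprotein receptors and is induced by liver X receptors, was the gene that rose. It stood at 25.1, 23.9 and 22.2 CPM in wild type and at 38.2, 37.4 and 38.4 in knockout (log2 fold change 0.68, SE 0.109, adjusted p 0.000328), with no overlap. STARD4, which carries cholesterol between membranes, was not called (53.9, 49.2 and 43.0 CPM against 50.9, 50.5 and 54.6, log2 fold change 0.09, SE 0.114).

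In the fatty acid branch 5 of 6 enzymes fell in the NKX2-2 knockout, and all 6 did with the replicate block. The median log2 fold change was -0.68. FASN (chr17:82078333-82098332, minus strand), the synthase that builds palmitate, stood at 430.9, 451.8 and 320.6 CPM in wild type and at 246.7, 188.7 and 139.9 in knockout (log2 fold change -1.07, SE 0.185, adjusted p 0.000663). SCD (chr10:100347124-100364834, plus strand), which desaturates stearate to oleate, stood at 842.3, 812.6 and 702.7 CPM against 532.5, 468.2 and 380.3 (log2 fold change -0.77, SE 0.134, adjusted p 0.000619). In FASN and SCD the libraries numbered 3 were the lowest of both groups, and neither gene had overlapping groups. FADS1 and FADS2, neighbouring desaturases of polyunsaturated fatty acids on chromosome 11, fell by similar amounts. FADS1 stood at 179.4, 172.9 and 157.4 CPM against 116.5, 121.0 and 104.0 (log2 fold change -0.58, SE 0.102, adjusted p 0.000722). FADS2 stood at 361.8, 350.2 and 386.3 CPM against 258.9, 252.1 and 236.2 (log2 fold change -0.56, SE 0.099, adjusted p 0.000747). Their exons overlap by 490 bases on opposite strands, and whether counting used strand is not given in the sources used here.

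ELOVL6, which extends palmitate to stearate, stood at 91.7, 93.2 and 96.7 CPM in wild type and at 76.2, 84.6 and 80.8 in the NKX2-2 knockout. Its groups did not overlap, and it was called with the replicate block (log2 fold change -0.22, adjusted p 0.0228) but not without it (adjusted p 0.0976). ACACA, the carboxylase that makes malonyl-CoA for fatty acid synthesis, had few counts in this experiment, at most 86 in a library. It stood at 3.9, 4.3 and 2.5 CPM in wild type and at 1.6, 1.6 and 2.7 in knockout, and the groups overlapped (log2 fold change -0.91, SE 0.287, adjusted p 0.0271). The call ended without knockout library 1 or 2 (-0.81 and -0.77) or without wild-type library 1 or 2 (-0.87 and -0.77). Counts of ACACA are uncertain here: relative to its deposited TPM (a level scaled by gene length), it had 0.051 times the counts it had in the CLEC16A table, after centring over 11060 genes, and 208 of those genes were at least 4 times short. On log2(TPM + 1) with limma its log2 fold change was -0.65 (adjusted p 0.00733). The same ratio was 0.28 for LSS, so its counts are uncertain here too. Its log2 fold change was -0.69 on log2(TPM + 1) (limma, adjusted p 0.0205), against -0.99 on counts. On log2(TPM + 1) with no minimum mean TPM, the NKX2-2 calls of FASN, SREBF1, LSS and HMGCS1 ended. Their values were -1.015, -0.67, -0.69 and -0.32 (limma, adjusted p 0.0558, 0.0856, 0.115 and 0.144). Those of IDI1, INSIG1, MSMO1, MVD and SCAP also ended there. The SCAP call ended on log2(TPM + 1) with that minimum too (-0.32, limma, adjusted p 0.114).

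**Figure D2:**
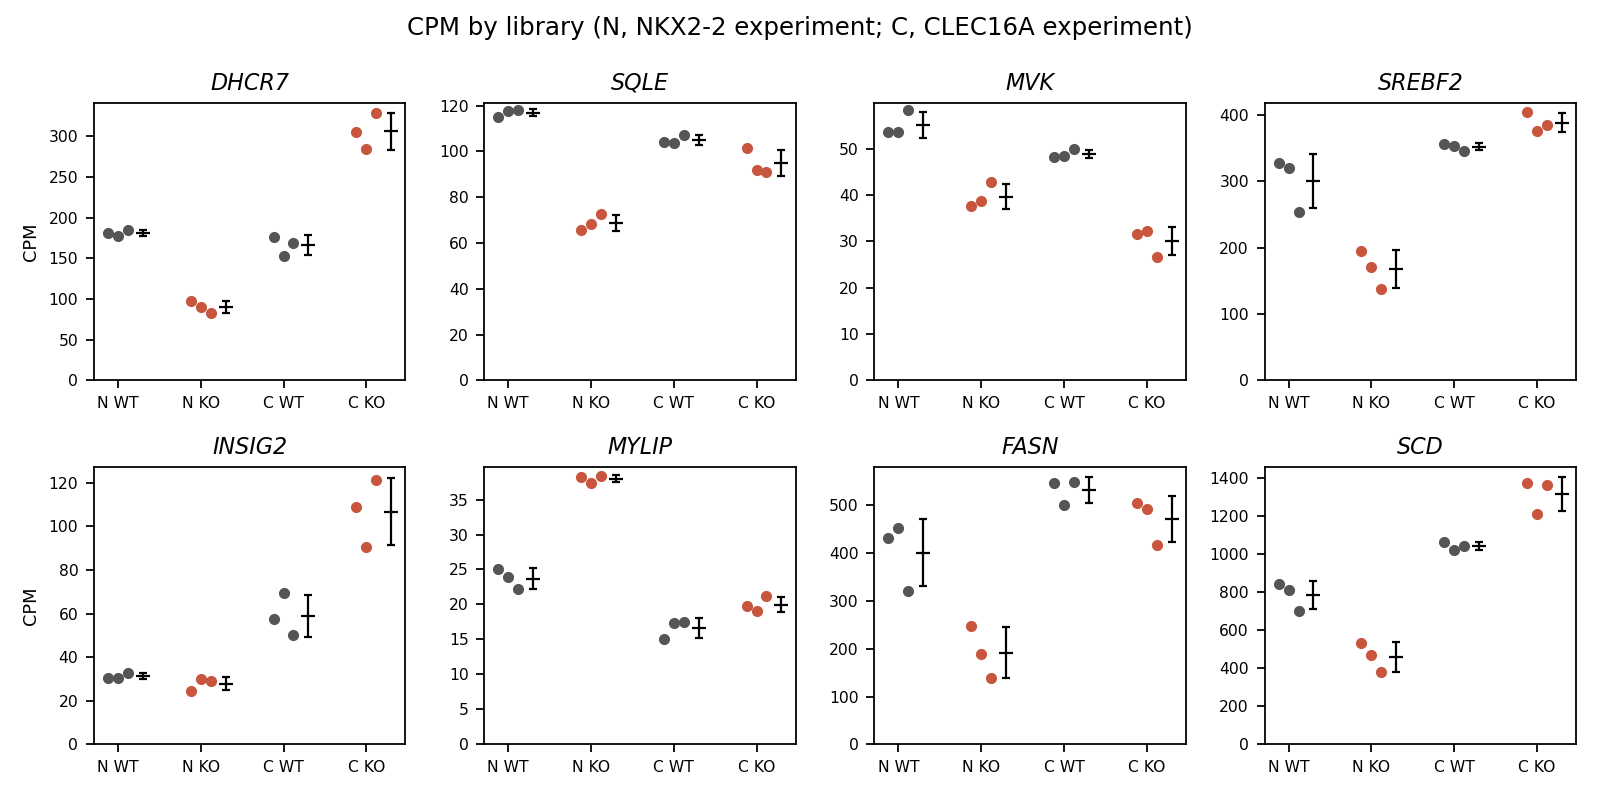
CPM of 8 genes in each library (points, 3 per group, grey for wild type and red for knockout), with mean and SD beside them, for the NKX2-2 experiment (N) and the CLEC16A experiment (C). DHCR7 and SCD move down from wild type to knockout in N and up in C, MVK moves down in both, and INSIG2 rises in C from 50.1 to 69.4 CPM in wild type to 90.4 to 121.3 in knockout.

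In the CLEC16A knockout the same genes moved in both directions. Of the 31 genes, 9 rose, 9 fell and 13 were not called, with a median log2 fold change of -0.02 against -0.01 over all genes tested. Among all 19958 genes tested, 45% were called, 23.7% higher and 21.3% lower, and the members that fell were 29% of the 31. Groups did not overlap for 21 of the 31 genes, where 53.8% of all genes tested did not overlap. The genes took 0.486% to 0.513% of counts in wild type and 0.48% to 0.511% in knockout, in counts where every mitochondrial DNA gene was at 0. The split of calls depended on scaling: 52.7% of all genes called were higher on TMM-scaled counts, 43.2% with upper-quartile scaling and 39.7% on log2(TPM + 1), where the median of all genes moved from -0.01 to -0.12. On log2(TPM + 1) with limma 4 of the 31 genes were called higher and 12 lower, so the even split held on counts and not on TPM.

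Of the 18 sterol enzymes, 3 rose and 7 fell in the CLEC16A knockout. The 3 that rose, MSMO1, SC5D and DHCR7, act after lanosterol, as do TM7SF2 and HSD17B7, which fell. DHCR7 stood at 176.6, 152.2 and 169.2 CPM in wild type and at 304.9, 283.7 and 328.4 in knockout (log2 fold change 0.88, SE 0.071, adjusted p 6e-10). MSMO1 stood at 89.7, 92.4 and 96.7 CPM against 137.1, 134.5 and 131.5 (log2 fold change 0.53, SE 0.063, adjusted p 2.92e-07). SC5D stood at 114.0, 110.7 and 111.7 CPM against 158.8, 151.9 and 177.9 (log2 fold change 0.54, SE 0.067, adjusted p 6.55e-07). None of these had overlapping groups. The rise of SC5D was seen in counts only: on log2(TPM + 1) its log2 fold change turned to -0.14 (limma, adjusted p 0.37), while DHCR7 and MSMO1 were called higher in all 17 alternatives, with values from 0.75 to 0.93 and from 0.37 to 0.56.

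MVK, MVD, IDI1, FDFT1 and LSS, which act in the steps up to lanosterol, fell. MVK stood at 48.2, 48.4 and 49.9 CPM in wild type and at 31.6, 32.2 and 26.6 in the CLEC16A knockout (log2 fold change -0.70, SE 0.085, adjusted p 4.46e-07), the largest fall of the 31 genes there. LSS stood at 226.3, 212.9 and 216.9 CPM against 181.2, 166.8 and 151.2 (log2 fold change -0.40, SE 0.068, adjusted p 5.03e-05). IDI1 stood at 97.9, 93.6 and 91.5 CPM against 78.2, 72.9 and 72.8 (log2 fold change -0.34, SE 0.066, adjusted p 0.000208). Every knockout library of these 3 genes was below every wild-type library. TM7SF2 stood at 119.7, 104.9 and 115.0 CPM against 89.2, 92.6 and 81.8 (log2 fold change -0.37, SE 0.070, adjusted p 0.000162). FDFT1, HSD17B7, a ketoreductase of the C4 demethylation steps, and MVD fell by 0.32, 0.36 and 0.21 on the log2 scale. The call of MVD ended without knockout library 1 or 3 or wild-type library 3 (-0.22, -0.17 and -0.17). SQLE was not called, at 104.2, 103.5 and 107.3 CPM against 101.4, 91.9 and 91.1 (log2 fold change -0.15, SE 0.066, adjusted p 0.0727), but on log2(TPM + 1) it was called lower (-0.28, limma, adjusted p 0.0114). HMGCS1, FDPS and EBP had log2 fold changes of 0.13, 0.20 and 0.29, and PMVK, CYP51A1, NSDHL and ACAT2 of -0.19, -0.12, -0.04 and -0.05; none of these was called.

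Of the 7 regulators, 4 rose and none fell in the CLEC16A knockout. INSIG2 stood at 57.4, 69.4 and 50.1 CPM in wild type and at 108.8, 90.4 and 121.3 in knockout (log2 fold change 0.86, SE 0.130, adjusted p 0.000308). SCAP stood at 186.7, 196.0 and 182.8 CPM against 268.4, 249.5 and 268.9 (log2 fold change 0.48, SE 0.062, adjusted p 1.25e-06). INSIG1 stood at 40.0, 42.5 and 38.9 CPM against 52.4, 55.4 and 60.6 (log2 fold change 0.47, SE 0.078, adjusted p 3.01e-05). All 3 had no overlap between groups. SCAP was called in all 17 alternatives, but on log2(TPM + 1) INSIG1 had a value of 0.22 (limma, adjusted p 0.102) and INSIG2 of 0.39 (adjusted p 0.464), neither called.

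MYLIP stood at 15.0, 17.3 and 17.6 CPM in the wild type of the CLEC16A experiment and at 19.7, 19.0 and 21.2 in knockout (log2 fold change 0.27, SE 0.106, adjusted p 0.0459). Its call ended in 12 of 17 alternatives, among them each of the fits without knockout library 1 or 3 or wild-type library 1, 2 or 3 (0.28, 0.22, 0.19, 0.29 and 0.30). Neither transcription factor gene was called by edgeR. SREBF2 stood at 356.4, 353.1 and 346.1 CPM against 404.4, 376.2 and 384.0 (log2 fold change 0.14, SE 0.060, adjusted p 0.0606), and its groups did not overlap; with DESeq2 it was called higher (0.14, adjusted p 0.0318). SREBF1 stood at 238.4, 247.0 and 243.4 CPM against 239.7, 249.8 and 233.0, with overlap (log2 fold change -0.01, SE 0.060). On log2(TPM + 1) SREBF1 was called lower (-0.21, limma, adjusted p 0.0303). STARD4 was not called either (52.4, 59.8 and 48.6 CPM against 58.1, 51.1 and 57.4, log2 fold change 0.05).

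In the fatty acid branch 2 enzymes rose and 2 fell in the CLEC16A knockout. SCD stood at 1067.3, 1022.5 and 1044.2 CPM in wild type and at 1377.7, 1213.6 and 1363.7 in knockout (log2 fold change 0.34, SE 0.064, adjusted p 0.000144). ELOVL6 stood at 96.6, 87.8 and 96.4 CPM against 108.5, 108.7 and 113.0 (log2 fold change 0.23, SE 0.065, adjusted p 0.00519). Neither had overlapping groups, and neither was called on log2(TPM + 1), where SCD had a value of 0.20 and an adjusted p of 0.067 (limma). ACACA stood at 154.0, 142.5 and 152.4 CPM against 121.6, 124.6 and 108.4 (log2 fold change -0.34, SE 0.067, adjusted p 0.000231), with no overlap. FADS2 stood at 378.9, 312.0 and 373.4 CPM against 331.3, 310.7 and 290.5, with overlap (log2 fold change -0.19, SE 0.074, adjusted p 0.0411). The call of FADS2 ended without knockout library 2 or 3 or wild-type library 1 or 3 (-0.19, -0.14, -0.14 and -0.16). FASN stood at 547.0, 500.3 and 548.0 CPM against 505.1, 491.3 and 417.4 (log2 fold change -0.17, SE 0.071, adjusted p 0.0521), and FADS1 at 215.4, 181.7 and 213.4 against 207.3, 198.2 and 195.8 (log2 fold change -0.02, SE 0.069). Neither was called, and their groups overlapped. On log2(TPM + 1) FASN was called lower (-0.32, limma, adjusted p 0.0244).

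Effects of the knockouts were then compared directly, as NKX2-2 effect minus CLEC16A effect in a single edgeR fit of the 12 libraries. Of the 31 genes, 17 had a lower effect in the NKX2-2 experiment, 2 had a higher effect and 12 were not called. Over all 20494 genes tested, 38.2% were called, 20.4% lower and 17.8% higher, and the share of higher calls was 46.6% on TMM-scaled counts but 57.2% with upper-quartile scaling, where the median of all genes moved from 0.04 to 0.16. With upper-quartile scaling 16 genes were lower and 3 higher. The experiment, its tables and the gene knocked out cannot be told apart in this difference, which was fitted on counts and not on TPM, because the TPM tables were scaled separately.

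**Figure D3:**
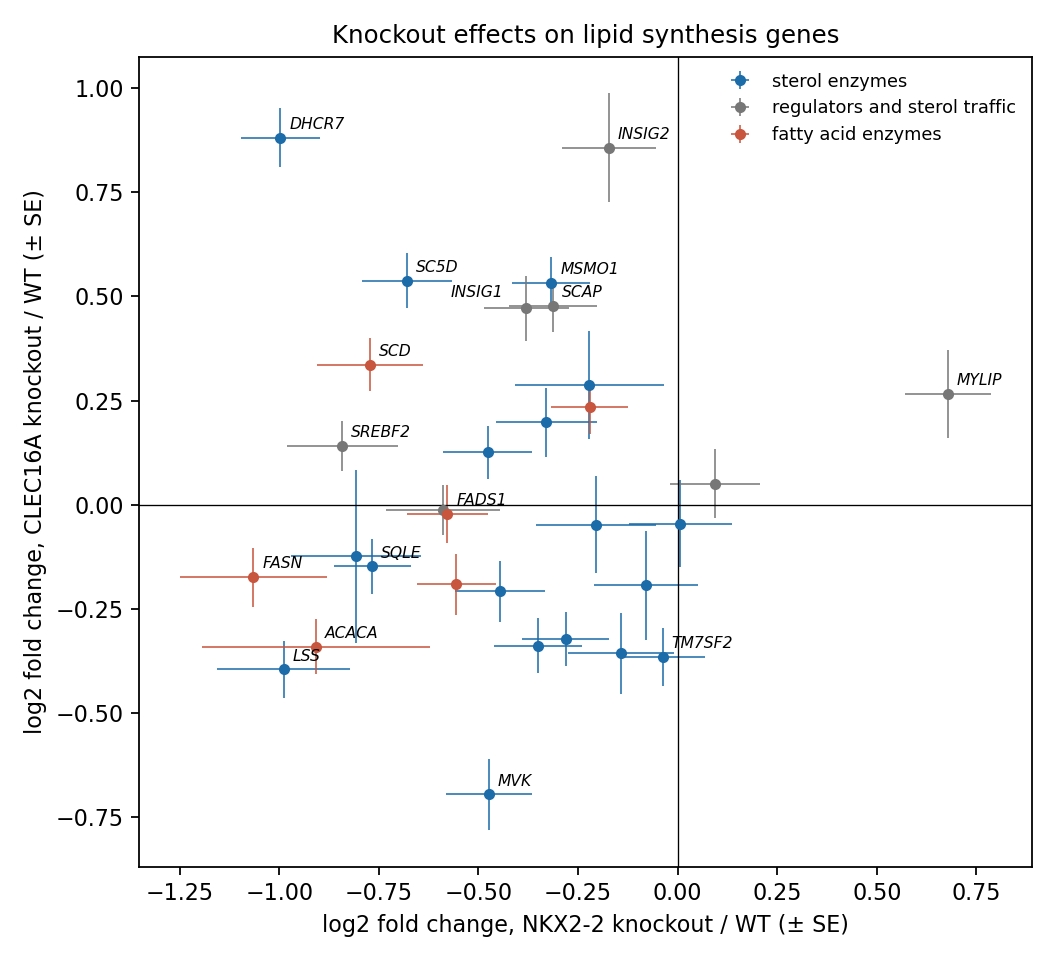
Log2 fold change of each of the 31 genes in the NKX2-2 knockout (horizontal axis) and in the CLEC16A knockout (vertical axis), with SE bars, coloured by branch. The 6 genes called in opposite directions lie in the upper left (DHCR7, SC5D, MSMO1, SCAP, INSIG1 and SCD), and MVK, LSS and ACACA lie in the lower left.

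Opposite calls were found for 6 genes, which fell in the NKX2-2 knockout and rose in the CLEC16A knockout, and all 6 passed the test of the difference. DHCR7 had a difference of -1.87 on the log2 scale (SE 0.126, adjusted p 6.95e-11), SC5D of -1.21 (SE 0.133), SCD of -1.10 (SE 0.151), INSIG1 of -0.84 (SE 0.131), MSMO1 of -0.84 (SE 0.116) and SCAP of -0.78 (SE 0.129). They comprise the sterol enzymes DHCR7, SC5D and MSMO1, the desaturase SCD and the regulators INSIG1 and SCAP. In the CLEC16A experiment the calls of SC5D, SCD and INSIG1 did not hold on TPM, as given above. In the NKX2-2 experiment the SCAP call ended on TPM and with upper-quartile scaling. Those of MSMO1 and INSIG1 ended on log2(TPM + 1) without a filter, and that of MSMO1 also with upper-quartile scaling. DHCR7 was called in both experiments in every alternative. Falls in both knockouts were found for MVK, MVD, IDI1, LSS, ACACA and FADS2. Of these LSS (-0.59, SE 0.178, adjusted p 0.012) and FADS2 (-0.36, SE 0.130, adjusted p 0.0347) were called in the difference. The LSS call ended without wild-type library 2 of the NKX2-2 experiment (-0.45, adjusted p 0.0621). Counts of LSS are also uncertain in the NKX2-2 experiment. The FADS2 call ended without knockout library 1 or 2 or wild-type library 2 of the CLEC16A experiment (-0.31, -0.36 and -0.27) and without knockout library 2 or 3 or wild-type library 1 or 3 of the NKX2-2 experiment (-0.37, -0.31, -0.37 and -0.31). MVK had a difference of 0.23 (SE 0.137, adjusted p 0.201) and MVD of -0.23 (SE 0.136, adjusted p 0.197), both uncalled.

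Another 7 genes fell in the NKX2-2 knockout and were not called in the CLEC16A knockout. For 6 of them the effects differed: SREBF2 by -0.97 (SE 0.154, adjusted p 2.45e-05), FASN by -0.88 (SE 0.233, adjusted p 0.00716), SQLE by -0.61 (SE 0.115), HMGCS1 by -0.59 (SE 0.129), SREBF1 by -0.57 (SE 0.161) and FADS1 by -0.55 (SE 0.126). CYP51A1 had a difference of -0.68 (SE 0.284, adjusted p 0.0663), which was not called. INSIG2 (-1.02, SE 0.175, adjusted p 6.29e-05) and ELOVL6 (-0.45, SE 0.116, adjusted p 0.00382) rose in the CLEC16A knockout alone among the calls, and both differed. FDPS, called in neither experiment, had effects that differed by -0.52 (SE 0.154, adjusted p 0.00988). The 2 genes with a higher effect in the NKX2-2 experiment were MYLIP (0.42, SE 0.142, adjusted p 0.0217), which rose in both, and TM7SF2 (0.34, SE 0.132, adjusted p 0.0487). The MYLIP call ended without knockout library 2 (0.39) or wild-type library 3 (0.38) of the CLEC16A experiment. The TM7SF2 call ended without knockout library 1 or 3 or wild-type library 1 or 3 of the CLEC16A experiment (0.35, 0.29, 0.29 and 0.33) and without knockout library 1 or 3 or wild-type library 1 or 2 of the NKX2-2 experiment (0.30, 0.32, 0.31 and 0.28).

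The branches were compared as a description, by the mean over a branch's genes of log2 CPM minus the wild-type mean in each library. In the NKX2-2 experiment the fatty acid enzymes stood at 0.07, 0.08 and -0.15 in wild type and at -0.62, -0.69 and -0.75 in knockout. The sterol enzymes stood at -0.04, -0.05 and 0.09 against -0.48, -0.45 and -0.34, and the regulators at 0.06, 0.01 and -0.07 against -0.14, -0.22 and -0.31. All 3 knockout libraries were thus below all 3 wild-type libraries in each branch. Fatty acid minus sterol enzymes was 0.11, 0.13 and -0.24 in wild type and -0.14, -0.23 and -0.41 in knockout. The groups thus overlapped at wild-type library 3. Between libraries of the same number the gap was lower in knockout each time, with the numbers taken as pairs from the data. The sterol means include LSS and the fatty acid means include ACACA, genes whose counts are uncertain in this experiment. For ACACA knockout minus wild type was -1.26, -1.43 and 0.06 on the log2 scale between libraries numbered 1, 2 and 3. In the CLEC16A experiment the regulators stood at -0.03, 0.09 and -0.06 in wild type and at 0.33, 0.25 and 0.38 in knockout, with no overlap. This rise was read on counts. On log2(TPM + 1) SCAP alone of the regulators stayed called higher (0.34, limma, adjusted p 0.00743), and SREBF1 was called lower. Sterol enzymes (-0.02, 0.00 and 0.02 against 0.02, 0.00 and -0.15) and fatty acid enzymes (0.06, -0.10 and 0.04 against 0.03, -0.03 and -0.08) overlapped between groups. In the list medians, the fatty acid branch stood at -0.68 and -0.10 in the NKX2-2 and CLEC16A knockouts, the sterol enzymes at -0.34 and -0.14 and the regulators at -0.31 and 0.27.

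**Figure D4:**
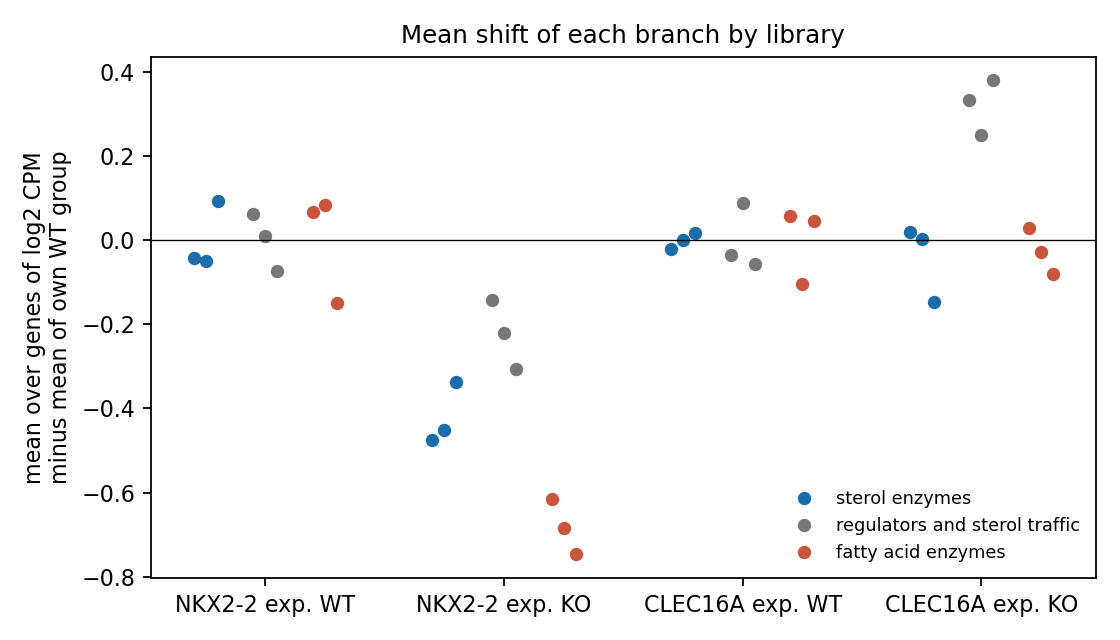
Mean shift of each branch (18 sterol enzymes, 7 regulators, 6 fatty acid enzymes) in each of the 12 libraries, as the mean over genes of log2 CPM minus the wild-type mean of the same experiment. In the NKX2-2 knockout the fatty acid points lie lowest, from -0.75 to -0.62, and in the CLEC16A knockout the regulators lie from 0.25 to 0.38. The sterol points include LSS and the fatty acid points ACACA, genes whose counts are uncertain in the NKX2-2 experiment. On log2(TPM + 1) SCAP alone of the regulators was called higher in the CLEC16A knockout (limma).

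Levels per gene length were read from the deposited TPM, within each experiment. SCD was the most abundant of the 31 transcripts in both wild types, at 109 ± 12.2 TPM (SD, n = 3) in the NKX2-2 experiment and 395 ± 14.7 in the CLEC16A experiment, followed by FADS2 at 104 ± 4.28 and 314 ± 52.5. In the NKX2-2 wild type SCD and FADS2 differed by less than the SD of SCD. FDPS was the most abundant sterol enzyme, at 86.0 ± 9.10 and 201 ± 4.07 TPM, and MYLIP was the lowest gene in both, at 5.70 ± 0.458 and 10.9 ± 0.766. SREBF2 and SREBF1 stood at 45.1 ± 7.23 and 34.8 ± 3.08 TPM in the NKX2-2 wild type and at 145 ± 3.39 and 132 ± 3.68 in the CLEC16A wild type. In the TPM of INSIG2 the libraries of the CLEC16A experiment scattered widely, at 60.6 ± 21.2 in wild type and 80.6 ± 29.2 in knockout. Values of the experiments are not comparable with each other, because the TPM of all listed genes sum to only 41.4% to 47.2% of the full total for NKX2-2, against 99.7% to 99.8% for CLEC16A.

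Other genes of lipid metabolism were read from further lists, beside the 33.4% of all genes called in the NKX2-2 knockout (median log2 fold change 0.03) and the 45% called in the CLEC16A knockout (median -0.01). Of 30 tested genes of fatty acid supply, elongation, activation and glyceride synthesis, 15 fell and 4 rose in the NKX2-2 knockout (median log2 fold change -0.27). Of 29 tested in the CLEC16A knockout, 13 rose and 5 fell (median 0.17). ELOVL4, the elongase of very long chains, fell in both, from 77.4 ± 4.27 to 32.6 ± 1.33 CPM in the NKX2-2 knockout (log2 fold change -1.25, SE 0.105), and in the CLEC16A knockout from 89.7 ± 0.625 to 46.3 ± 3.77 (log2 fold change -0.95, SE 0.073). AGPAT2, which makes phosphatidic acid for glycerides, fell from 196 ± 32.3 to 83.8 ± 5.21 CPM in the NKX2-2 knockout (log2 fold change -1.22) and rose from 161 ± 11.5 to 351 ± 10.1 in the CLEC16A knockout (1.12). ACACB, the carboxylase of the mitochondrial surface, fell in the NKX2-2 knockout (log2 fold change -1.03, SE 0.175). Among 14 further sterol genes 5 fell and 1 rose in the NKX2-2 knockout (median -0.20), and 4 rose and 2 fell in the CLEC16A knockout (median 0.02). AACS, which activates acetoacetate for lipid synthesis, fell in the NKX2-2 knockout by 1.09 on the log2 scale (SE 0.111, adjusted p 7.15e-06).

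The 5 genes of sterol export and the liver X receptors were read beside the synthesis genes, because liver X receptors raise export when sterols are plentiful. ABCA1, the transporter that loads cholesterol onto lipoproteins, stood at 47.6, 36.6 and 30.9 CPM in wild type and at 89.1, 95.9 and 67.3 in the NKX2-2 knockout (log2 fold change 1.13, SE 0.166, adjusted p 0.000166). In the CLEC16A experiment it stood at 35.3, 36.1 and 32.4 CPM against 46.8, 50.3 and 53.5 (log2 fold change 0.54, SE 0.081, adjusted p 9.1e-06). No knockout library of either experiment lay within the range of its wild type. Of the 5 genes 2 rose and 1 fell in the NKX2-2 knockout (median log2 fold change -0.12), and 4 rose and none fell in the CLEC16A knockout (median 0.54). ABCG1, a second exporter, rose in the NKX2-2 knockout (log2 fold change 1.00, SE 0.178), and LPCAT3, which remodels phospholipids, fell by 0.75 on the log2 scale there. NR1H2 and NR1H3, which encode the liver X receptors, had log2 fold changes of -0.12 and -0.12 in the NKX2-2 knockout, not called, and rose by 0.75 and 0.86 in the CLEC16A knockout. These 4 genes were named after their values were seen.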

How the data were processed

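Per the labels, total RNA of 12 libraries was sequenced. The authors deposited a table of raw counts per gene and a table of TPM for each experiment. The submitters' processing notes name the tools fastp (0.22.0), HISAT2 (2.2.1), StringTie (2.1.7) and the build hg38. Which program counted reads, with which annotation and strand setting, is not given in the sources used here. The 31 genes and every list of genes were chosen with earlier results of these data known. For NKX2-2, 45 rows of pseudoautosomal Y copies were left out. All 37 mitochondrial DNA genes were at 0 in the CLEC16A counts, and they took 7.05% to 10.2% of counts in the NKX2-2 libraries.

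Each knockout was tested against its own wild type over the whole count table with edgeR 4.0.16 in R 4.3.3 (robust quasi-likelihood test after filterByExpr and TMM scaling), and p-values were adjusted over all genes by Benjamini-Hochberg, with 0.05 as the threshold. SE was taken as the size of the log2 fold change divided by the square root of the F statistic. The difference of the effects was a contrast in a fit of the 12 libraries. The script was tested on simulated data. Groups came from sample titles. Replicates differed beyond sampling noise (chi-square per degree of freedom 3.84 to 25.3 between libraries of a group). In the NKX2-2 experiment the deviations of same-numbered libraries from their group means correlated at 0.301, 0.14 and 0.631 over 12337 genes, and the numbers were taken as pairs from the data, not from the design. Libraries numbered 1 and 2 were not told apart by this: wild-type library 2 with knockout library 1 reached 0.375 and wild-type library 1 with knockout library 2 reached 0.285, while the libraries numbered 3 correlated at -0.47 to -0.292 with the others. Alternatives were DESeq2 1.42.0, limma 3.58.1 on log2(TPM + 1) or log2(TPM + 0.1) with a minimum mean of 1 TPM in a group or none (each knockout only, not the difference), scaling by RLE or upper quartile, a looser or a fixed count filter, the replicate block, a fit of all libraries, no mitochondrial DNA genes and each library left out. A fit without both NKX2-2 libraries numbered 3 was added after seeing the data.

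CPM values were printed in every library for the regulators, the fatty acid enzymes and the 8 sterol enzymes with the smallest p in either experiment. Other pathway genes were named where called, at 5 CPM or more and among the 6 largest changes of an experiment. The members' adjusted p covers every gene tested.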

Additional observations from a re-analysis of the deposited data

Results flagged for a closer look

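Effects of the 2 knockouts differed by an interaction test (edgeR, adjusted p under 0.05) for 19 of the 31 genes, each given here as the NKX2-2 effect minus the CLEC16A effect on the log2 scale. Among sterol enzymes the differences were -1.87 for DHCR7, -1.21 for SC5D, -0.84 for MSMO1, -0.61 for SQLE, -0.59 for HMGCS1, -0.59 for LSS, -0.52 for FDPS and 0.34 for TM7SF2. Regulators differed by -1.02 for INSIG2, -0.97 for SREBF2, -0.84 for INSIG1, -0.78 for SCAP, -0.57 for SREBF1 and 0.42 for MYLIP. Fatty acid enzymes differed by -1.10 for SCD, -0.88 for FASN, -0.55 for FADS1, -0.45 for ELOVL6 and -0.36 for FADS2. Of these calls 15 were kept in all 19 alternatives fitted to the counts, and those of FADS2, LSS, MYLIP and TM7SF2 were not; the difference was not fitted on TPM.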

How the results depend on the processing

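Of the genes called, 10 of 20 in the NKX2-2 knockout and 10 of 18 in the CLEC16A knockout stayed past the threshold in the same direction in every alternative, those on TPM included. In the difference 15 of 19 did so in its 19 alternatives on counts. That difference was not fitted on TPM. Counts of called members in this section have no share of all genes under the same setting beside them. They show how calls moved with the processing, and not whether the members differed from all genes. On limma log2(TPM + 1) without a filter 3247 genes were called in the NKX2-2 knockout, with 11 of the 31 genes called and 10 of them lower. In the CLEC16A knockout the genes called higher went from 9 to 4 on log2(TPM + 1), to 4 on log2(TPM + 0.1) and to 3 without a filter, while those called lower went from 9 to 12, 12 and 11. SREBF1 was among them on all 3 (-0.214, -0.215 and -0.214). On these 3 TPM settings in the order pseudocount 0.1, pseudocount 1 and no filter, CLEC16A values turned sign for SC5D (-0.142, -0.140 and -0.140), FDPS (-0.123, -0.123 and -0.123), HMGCS1 (-0.083, -0.082 and -0.082), STARD4 (-0.096, -0.093 and -0.093), SREBF2 (-0.004, -0.004 and -0.004) and CYP51A1 (0.049, 0.049 and 0.049). The cause was not tested. With the replicate block 22 genes were lower in the NKX2-2 knockout, and 9 rose and 9 fell in the CLEC16A knockout, where the numbers do not pair the libraries (correlations -0.0219, -0.00823 and -0.0566) and MYLIP alone of the called genes lost its call (adjusted p 0.0502); in the difference 19 were lower and 2 higher.

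Genes near 0 changed sign under scaling or filter. The IDI1 difference was 0.003 with 10 counts in 3 libraries, 0.009 with DESeq2, 0.012 with RLE scaling, 0.117 with upper-quartile scaling and 0.015 without mitochondrial DNA genes. NSDHL in the NKX2-2 knockout was -0.024 with DESeq2, -0.013 with RLE scaling, -0.034 without a count filter and -0.007 without mitochondrial DNA genes. Upper-quartile scaling gave -0.023 for STARD4 in the CLEC16A knockout and 0.023 for TM7SF2 in the NKX2-2 knockout. Without both NKX2-2 libraries numbered 3, STARD4 was -0.025 and TM7SF2 0.019, and 20 genes were lower and 1 higher. Without a count filter the genes with a higher effect in the difference went from 2 to 0.

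Leaving out each library in turn gave these ranges for values that changed sign. In the NKX2-2 knockout they were -0.368 to 0.060 for EBP, -0.122 to 0.118 for NSDHL, -0.195 to 0.024 for PMVK and -0.110 to 0.039 for TM7SF2. In the CLEC16A knockout they were -0.280 to 0.103 for CYP51A1, -0.144 to 0.022 for ACAT2, -0.102 to 0.017 for FADS1, -0.154 to 0.025 for NSDHL, -0.038 to 0.011 for SREBF1 and -0.021 to 0.132 for STARD4. In the difference they were -0.068 to 0.086 for IDI1, -0.003 to 0.138 for FDFT1, -0.052 to 0.179 for NSDHL, -0.046 to 0.224 for PMVK and -0.034 to 0.128 for STARD4, and the genes with a higher effect numbered 0 to 2. The lowest was reached without wild-type library 3 of the CLEC16A experiment.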

Other observations

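Of 12 genes of fatty acid oxidation, which burns the product of the pathway, 4 fell and 1 rose in the NKX2-2 knockout (median log2 fold change -0.06), where 33.4% of all genes tested were called. In the CLEC16A knockout 8 rose and 3 fell (median 0.27), where 45% of all genes tested were called. PPARA, a nuclear receptor that switches on oxidation, stood at 76.6, 75.6 and 50.7 CPM in wild type and at 38.1, 38.4 and 28.0 in the NKX2-2 knockout (edgeR log2 fold change -0.96, SE 0.169, adjusted p 0.000706). In the CLEC16A experiment it stood at 67.9, 56.7 and 66.2 CPM against 130.3, 125.7 and 147.9 (log2 fold change 1.08, SE 0.078, adjusted p 1.22e-10). PPARGC1A, a coactivator of mitochondrial genes, stood at 7.4, 5.7 and 5.4 CPM in wild type and at 11.5, 14.1 and 15.3 in the NKX2-2 knockout (log2 fold change 1.14, SE 0.173, adjusted p 0.000209), and at 6.2, 6.9 and 6.5 against 3.7, 4.2 and 5.8 in the CLEC16A experiment (log2 fold change -0.51, SE 0.179, adjusted p 0.0242).

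ACSL5, DGAT2, ELOVL7 and DGAT1 were among the genes named by size of change in the CLEC16A knockout. All 8 enterocyte markers and 9 of 12 liver markers rose there. ACSL5, an acyl-CoA synthetase of intestine and liver, stood at 37.8, 44.1 and 40.8 CPM in wild type and at 398.3, 440.3 and 490.9 in knockout (log2 fold change 3.44, SE 0.083). DGAT2 and DGAT1, which make triglyceride, rose by 2.52 (SE 0.112) and 1.49 (SE 0.064) on the log2 scale, and ELOVL7, an elongase, by 1.87 (SE 0.110). In the NKX2-2 knockout DGAT1, DGAT2 and ELOVL7 fell by 0.51, 0.75 and 0.37, and ACSL5 was not called (-0.13, SE 0.103). The part of enterocyte or liver cells in these values was not tested.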
